A study of Mus musculus with 6 samples.

Results

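Cd34, Kit, Flt3, Angpt1 and Egfl7 are 5 genes of blood stem and progenitor cells, listed by name for this comparison and found by matching the Entrez Gene ID of each row to its mouse symbol. They were 5 of the 24532 gene IDs in the tables, and their levels were followed in 6 RNA sequencing libraries of cells sorted from the bone marrow of C57BL/6J mice. The libraries fell into 3 populations of 2 biological duplicates each. BaP, the basophil progenitors, were sorted as lineage-negative cells that carried CD34 and bound MAR1 but lacked c-Kit. MAR1HI and MAR1INT cells were also lineage-negative and c-Kit-negative, lacked CD34, carried CD200R3, and bound MAR1 at a high or an intermediate level. MAR1 recognises the alpha chain of the IgE receptor FceRI. No treatment or mutation is named in the labels, and the age and sex of the mice and whether animals were pooled are not given in the sources used here. Every gate therefore excluded the protein made from Kit, and CD34 protein set BaP apart from both other gates, so the Cd34 difference against BaP is not independent of the sort. The comparison of MAR1INT with MAR1HI does not have that limit, since neither gate held CD34 protein.

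Stem and early progenitor cells are recognised by what they carry on the surface. CD34 is a sialomucin that affects adhesion and is lost as cells mature. Kit and Flt3 are class III receptor tyrosine kinases, bound by stem cell factor and Flt3 ligand, that drive survival and division of early blood cells. Kit stays on mast cells for life, whereas it is lost from most other blood cells, basophils included, as they mature. Angpt1 encodes angiopoietin-1, a secreted ligand of the receptor Tek (Tie2), known from vessels and from the stem cell niche. Egfl7 encodes a secreted protein with EGF-like domains, best known from endothelium and also expressed in blood stem cells. Its gene holds the microRNA miR-126.

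The sequences just before the starts of Cd34 and Kit are shown because these genes had the closest patterns over the 6 libraries among the progenitor genes. They come from RefSeq with the build GRCm38.p6 (the sequence of mm10), are written 5′ to 3′ on the strand of the gene, and give the 250 bases before the start. Cd34 lies on the plus strand at chr1:194938571-194938820, and Kit on the plus strand at chr5:75574737-75574986. Capitals mark matches to the letters AGGAAG (ETS factors) or TAACNG (MYB), searched on both strands.
Cd34: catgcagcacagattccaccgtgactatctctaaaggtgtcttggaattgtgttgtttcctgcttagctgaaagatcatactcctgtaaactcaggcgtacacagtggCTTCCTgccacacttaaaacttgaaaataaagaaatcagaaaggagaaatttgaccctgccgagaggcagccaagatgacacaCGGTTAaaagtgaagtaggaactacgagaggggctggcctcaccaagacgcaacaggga
Kit: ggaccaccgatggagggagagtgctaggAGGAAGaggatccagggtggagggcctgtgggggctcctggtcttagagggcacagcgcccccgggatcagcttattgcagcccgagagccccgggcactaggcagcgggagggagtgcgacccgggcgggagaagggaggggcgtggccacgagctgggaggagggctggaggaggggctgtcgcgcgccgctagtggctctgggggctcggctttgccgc
In Cd34, both capital runs are matches on the opposite strand, AGGAAG at 142 bases and TAACNG at 59 bases before the start. In Kit, the capital run is AGGAAG on the gene's own strand, 222 bases before the start. Of 32851 RefSeq windows of the same length, which run from 250 bases before to 50 bases after a start, 35.4% held AGGAAG and 23.3% held TAACNG. A further 3 motifs were searched: GATAA (GATA factors, in 25.4% of windows), CANNTG (E-box, 72.3%) and TGTGGT (RUNX, 16.8%). None of these lay in the printed stretches. Past the start, Cd34 held GATAA and Kit held CANNTG. The 2 windows differ in composition: Kit has 69% G and C with 20 CpG pairs, and Cd34 has 50% with 7, against a median of 52.7% and 7 over the windows.

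The mature microRNA of the Egfl7 gene is shown because it reaches beyond the protein product. Its RefSeq sequence lies on the plus strand at chr2:26591402-26591423 (GRCm38.p6), and capitals mark the seed, bases 2 to 8.
miR-126a-3p: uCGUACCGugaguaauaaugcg
The hairpin of 73 bases lay within an intron of 8 of the 19 annotated Egfl7 transcripts (GENCODE M21), in an exon of 1, and outside the other 10. Mir126a was listed at 0 TPM in all 6 libraries. Mir126b, annotated on the opposite strand, was listed at 2.38 TPM in 1 MAR1HI library and at 3.28 in 1 MAR1INT library, and at 0 in the rest. These are gene-level values of libraries enriched by capture and do not measure the mature microRNA. Whether miR-126 was present was not tested.

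The deposited values are TPM (a length-corrected share of all transcripts), FPKM and coverage. Depth was similar, as the tables implied 4.75 to 5.28 gigabases of aligned sequence per library. Markers that define basophils were present in all 6 libraries (12 of 12 genes tested, summed level 12518 to 22401 TPM). MAR1INT differed from the other groups in its low values: of 11337 tested genes, 1202 and 972 were listed at 0 in its 2 libraries, against 98 and 110 in BaP and 163 and 46 in MAR1HI. Housekeeping genes were among them, such as Qrsl1, a mitochondrial enzyme subunit, at 0 and 0.0408 TPM in MAR1INT. A value of 0 is therefore reported as listed at 0. Differences are log2 changes of TPM + 1 from limma, fitted to all 6 libraries, with p-values adjusted by the Benjamini-Hochberg method over the 11337 genes that reached 1 TPM in at least 2 libraries. This scale understates changes of low genes. Of the 5 progenitor genes, 4 passed that filter and Flt3, which reached 1 TPM in 1 library, did not.

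Cd34 and Kit were high in BaP, low in MAR1HI and near or at 0 in MAR1INT. Angpt1 stayed at a similar level in BaP and MAR1HI and dropped in MAR1INT. Egfl7 took a middle course. In limma's F test over the 3 groups, all 4 tested genes passed (adjusted p from 0.000152 for Cd34 to 0.00135 for Egfl7), against 26.6% of all genes tested.

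Cd34 (gene 12490, mm10 chromosome 1, 194938821 to 194961292, plus strand) was present at 52.6 and 44.1 TPM in BaP. MAR1HI libraries held 4.67 and 7.63 TPM, and those of MAR1INT 0.134 and 0. The 3 groups did not overlap, and the highest MAR1HI library was far below the lowest of BaP. The transcript had not vanished from the CD34-negative MAR1HI gate: its mean there was 12.7% of that in BaP (8.89% to 17.3% over the pairings of single libraries). The coverage behind these values was 151 and 124 reads per base in BaP, against 12.8 and 18.0 in MAR1HI and 0.317 and 0 in MAR1INT. MAR1HI thus measured Cd34 at usable depth, while MAR1INT gave at most a trace.

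Kit (gene 16590, chromosome 5, 75574987 to 75656721, plus strand), the receptor of stem cell factor, stood at 44.9 and 38.6 TPM in BaP. It stood at 2.94 and 4.36 TPM in MAR1HI and at 0.0446 and 0.449 in MAR1INT. Again no group overlapped another. The BaP gate took only cells without c-Kit protein, yet the Kit transcript there was above 73.2% of the tested genes in the lower library and 76.2% in the higher. In MAR1HI it was above 16.9% and 17.6% of them. Its mean in MAR1HI was 8.74% of that in BaP (6.54% to 11.3% over the pairings). Coverage was 133 and 111 reads per base in BaP, against 8.55 and 10.6 in MAR1HI and 0.106 and 1.13 in MAR1INT.

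Flt3 (gene 14255, chromosome 5, 147330742 to 147400489, minus strand), the receptor of Flt3 ligand, was low throughout. BaP held 0.470 and 1.37 TPM of it and MAR1HI 0.634 and 0.136, and both MAR1INT libraries listed it at 0. BaP and MAR1HI overlapped. In a fit with no filter on low values, limma gave Flt3 a log2 change of -0.45 between MAR1HI and BaP (95% interval -1.20 to 0.30, adjusted p = 0.567). Between MAR1INT and BaP the value was -0.90 (-1.65 to -0.15, adjusted p = 0.122). Neither passed, and coverage of at most 3.94 reads per base leaves little to separate these levels.

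Angpt1 (gene 11600, chromosome 15, 42424667 to 42676977, minus strand), the secreted Tek ligand, stood at 58.8 and 54.2 TPM in BaP and at 37.9 and 61.4 in MAR1HI. The MAR1HI libraries lay on either side of both BaP values. In MAR1INT it stood at 8.50 and 7.50 TPM, below every other library. Its MAR1HI mean was 87.7% of that in BaP (64.4% to 113% over the pairings), and its MAR1INT mean 16.1% of that in MAR1HI (12.2% to 22.5%). Angpt1 was the one gene of the 5 that stayed above 1 TPM in MAR1INT, with a coverage of 20.1 and 18.8 reads per base. It was above 81.4% and 80.8% of tested genes in BaP, above 71.0% and 75.0% in MAR1HI, and above 39.3% and 37.6% in MAR1INT.

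Egfl7 (gene 353156, chromosome 2, 26581056 to 26592682, plus strand) stood at 10.7 and 9.03 TPM in BaP and at 4.76 and 2.93 in MAR1HI. In MAR1INT it was listed at 0 in 1 library and at 0.0796 TPM in the other. The groups followed the same order as for Cd34 and Kit, with no overlap. The MAR1HI mean was 38.9% of that in BaP (27.3% to 52.7% over the pairings). Coverage was low for its TPM compared with the other genes, at 6.72 and 5.50 reads per base in BaP and 2.92 and 1.50 in MAR1HI.

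**Figure D1:**
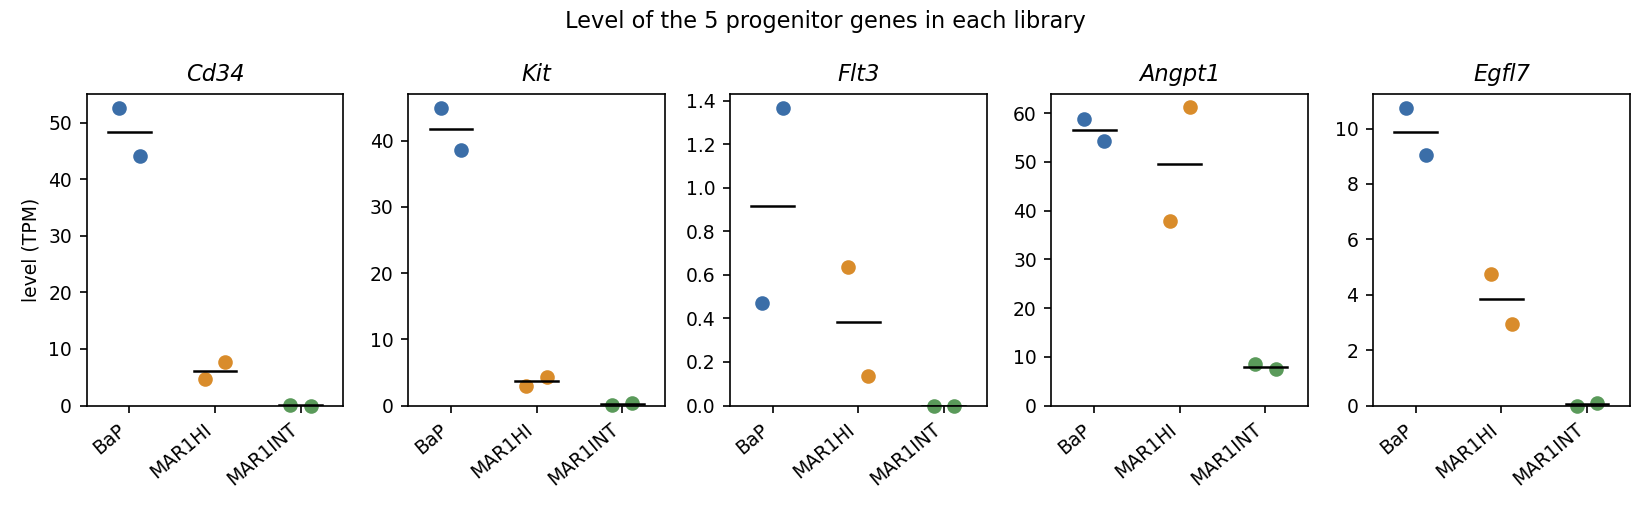
Level of each progenitor gene (vertical axis, TPM, with its own scale per gene) in BaP, MAR1HI and MAR1INT. Each point is 1 library and each line the mean of 2. Cd34 and Kit fall from above 38 TPM in BaP to below 8 in MAR1HI, while the Angpt1 libraries of BaP and MAR1HI overlap.

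Between the CD34-positive BaP and the CD34-negative MAR1HI, Cd34 and Kit fell and the other 2 tested genes did not pass the test. Kit changed by -3.21 (SE 0.43, 95% interval -4.18 to -2.25, adjusted p = 0.00753) and Cd34 by -2.81 (SE 0.43, -3.77 to -1.86, adjusted p = 0.0122). Of the 4 tested genes 2 were called lower, where 0.662% of all genes tested were (2.49% in either direction). Only 21 genes had a lower change than Kit and 34 a lower one than Cd34. Egfl7 had a change of -1.19 (SE 0.42, -2.14 to -0.24, adjusted p = 0.189). Angpt1 had one of -0.22 (SE 0.33, -0.96 to 0.51, adjusted p = 0.763), an interval that reaches to either side of 0. The calls of Cd34 and Kit were lost when any 1 of the BaP or MAR1HI libraries was left out (adjusted p from 0.0962 to 0.192 for Cd34 and from 0.0704 to 0.188 for Kit), with pseudocount 0.1 (0.0897 and 0.089) and with no filter on low values (0.099 and 0.0881). Over all 13 alternatives run, the change of Kit lay between -3.70 and -2.99 and the adjusted p between 2.69e-13 and 0.188, and that of Cd34 between -3.24 and -2.51 and between 4.81e-11 and 0.192.

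Between the CD34-negative gates, all 4 tested genes fell from MAR1HI to MAR1INT. Cd34 changed by -2.72 (SE 0.43, adjusted p = 0.00309), Angpt1 by -2.45 (SE 0.33, adjusted p = 0.00147), Egfl7 by -2.19 (SE 0.42, adjusted p = 0.00852) and Kit by -1.90 (SE 0.43, adjusted p = 0.0172). In this comparison 14.5% of all genes tested were called lower. The MAR1INT level of Cd34, Kit and Egfl7 is at or near 0, so the size of these 3 changes depends on the pseudocount: at 0.1, they reached -5.31, -3.71 and -4.84. Quantile normalization shrank that of Cd34 to -1.56 (adjusted p = 0.0267). Angpt1 does not rest on such a value, and its change lay between -2.80 and -1.96 over all alternatives, with a call in each of the 13. The calls of Kit and Egfl7 were lost without either MAR1HI library (adjusted p 0.0694 and 0.128 for Kit, 0.0708 and 0.0629 for Egfl7), with no filter (0.084 and 0.0638) and after quantile normalization (-0.63 and 0.159, -1.06 and 0.136), and that of Cd34 without MAR1HI replicate 2 (0.0647).

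Across the whole span, from BaP to MAR1INT, Cd34 changed by -5.53 (SE 0.43, adjusted p = 6.91e-05) and Kit by -5.11 (SE 0.43, adjusted p = 8.48e-05). Egfl7 changed by -3.38 (SE 0.42, adjusted p = 0.000521) and Angpt1 by -2.68 (SE 0.33, adjusted p = 0.00046). All 4 were called lower, against 20.4% of all genes tested, and they were called in every alternative run. Here too the size depends on the pseudocount where MAR1INT is at or near 0: at 0.1, Cd34 changed by -8.30, Kit by -7.21, Egfl7 by -6.21 and Angpt1 by -2.81. On the TPM + 1 scale, 16 genes had a lower change than Cd34 and 30 than Kit, against 251 for Egfl7 and 553 for Angpt1. Levels like those of Cd34 and Kit in BaP rarely ended this low. Of 2089 genes with a BaP mean of 30 to 70 TPM, 21 were below 1 TPM in both MAR1INT libraries, Cd34 and Kit among them, and the median gene stood at 100.1% of its BaP mean. At the BaP level of Egfl7 (5 to 15 TPM) this was so for 241 of 2808 genes.

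The median of all genes tested moved by 0.24 in MAR1HI minus BaP, -0.36 in MAR1INT minus MAR1HI and -0.16 in MAR1INT minus BaP, and by other amounts under other scalings. Relative to that median, Cd34 and Kit lay at -3.05 and -3.45 in the first comparison, -2.36 and -1.54 in the second and -5.37 and -4.95 in the third. Angpt1 lay at -0.46, -2.10 and -2.52, and Egfl7 at -1.43, -1.84 and -3.22. The sign of all 12 changes was the same with FPKM, quantile normalization and median-of-ratios scaling. Bulk values cannot tell fewer cells that express a gene from less of its RNA per cell.

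**Figure D2:**
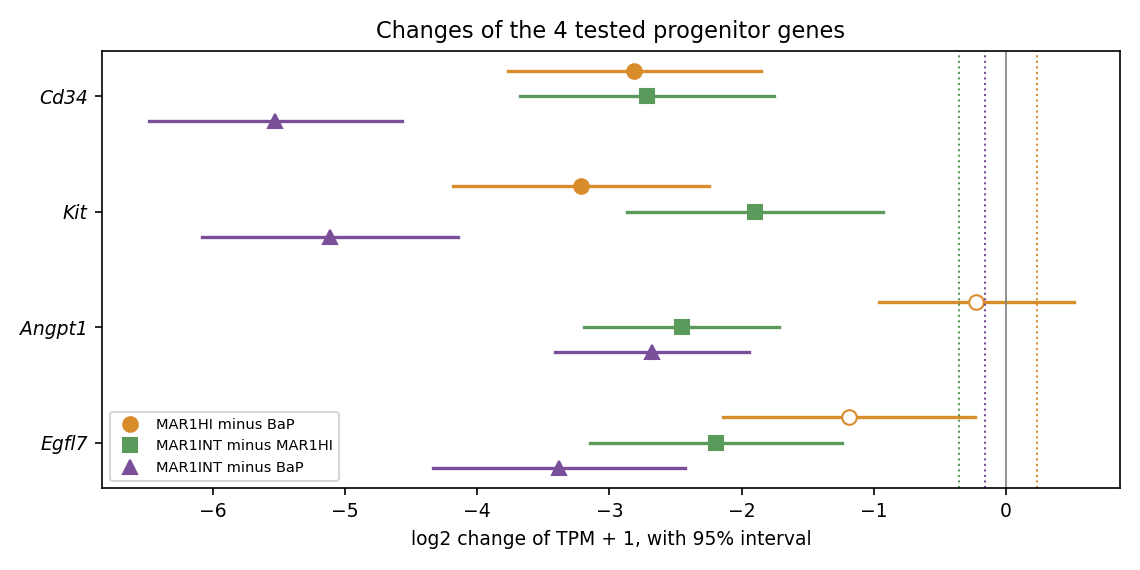
Log2 change of TPM + 1 (horizontal axis) of Cd34, Kit, Angpt1 and Egfl7 in the 3 comparisons, with 95% intervals from limma. Filled symbols passed at an adjusted p under 0.05, open ones did not, and dotted lines mark the median of all genes tested. The interval of Angpt1 spans 0 in MAR1HI minus BaP alone.

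Ratios between the genes within a library show how unequally they changed. Kit over Cd34, as a ratio of TPM, was 0.854 and 0.876 in BaP and 0.628 and 0.572 in MAR1HI. Angpt1 over Cd34 was 1.12 and 1.23 in BaP and 8.11 and 8.05 in MAR1HI. Angpt1 over Kit was 1.31 and 1.40 in BaP, against 12.9 and 14.1 in MAR1HI and 190.5 and 16.7 in MAR1INT. Each of these ratios separated BaP from MAR1HI without overlap, and the duplicates lay close together, although 2 libraries a group leave a two-sided exact permutation test no p below 0.333. Egfl7 over Cd34 was 0.204 and 0.205 in BaP but 1.02 and 0.384 in MAR1HI, where the duplicates differed. In the order of TPM, which is corrected for length, the genes ran Angpt1, Cd34, Kit, Egfl7, Flt3 in both BaP libraries. In MAR1HI Angpt1 stood alone at the top, with Cd34, Kit and Egfl7 between 2.93 and 7.63 TPM and their order not the same in both libraries.

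Other genes of stem and progenitor cells moved less uniformly. Of a list of 46 such genes without these 5, 31 were tested. From BaP to MAR1INT 11 were lower and 3 higher (35.5% and 9.68% of them, against 20.4% and 11.1% of all genes tested), with a median change of -0.63 against -0.16. Hoxa5, 1 of the 11, passed the filter only through the BaP libraries (1.48 and 1.29 TPM), so it could hardly be called higher elsewhere. In MAR1INT minus MAR1HI 7 were lower and 2 higher, where 14.5% and 2.29% of all genes tested were. In MAR1HI minus BaP 3 were lower and 0 higher, against 0.662% and 1.83%. When 1 library was left out, the lower count from BaP to MAR1INT lay between 9 and 11, and the higher one was 1 without BaP replicate 1. The lower count in MAR1HI minus BaP was 0 once any single BaP or MAR1HI library was left out and 6 without either MAR1INT library. In MAR1INT minus MAR1HI it was 0 without MAR1HI replicate 2 and 2 without any other BaP or MAR1HI library.

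Myb, a transcription factor needed by blood progenitors, stood at 159 and 146 TPM in BaP, at 57.2 and 89.9 in MAR1HI, and at 17.8 and 9.21 in MAR1INT. From MAR1HI to MAR1INT it changed by -2.39 (limma adjusted p = 0.00218) and from BaP to MAR1INT by -3.47. Like Angpt1 and Egfl7, it was not called between MAR1HI and BaP (-1.08, adjusted p = 0.154). Muc13, a membrane mucin, stood at 88.7 and 98.4 TPM, 33.2 and 36.9, and 12.8 and 10.2 in the same order, with a change of -2.93 from BaP to MAR1INT. Eng, a co-receptor of TGF-beta ligands, stood at 11.1 and 12.2, 2.56 and 2.42, and 0.439 and 0.247 TPM (-3.23). Adgrl4, an adhesion receptor, stood at 27.9 and 16.9, 10.2 and 11.1, and 0 and 4.15 TPM.

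In the first step, Ctla2a, Eng and Muc13 were called lower in MAR1HI than in BaP (-2.09, -1.85 and -1.39). Their adjusted p were 0.0493, 0.0492 and 0.0385, and each was lost in 7 of the 13 alternatives (highest 0.213, 0.31 and 0.314). In the second step, Ly6a, which encodes the stem cell antigen Sca-1, fell from 3.73 and 1.32 TPM to 0 and 0 (-1.73, adjusted p = 0.037, called in 5 of 13 alternatives).

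Some genes of the list went the other way. Ifitm1, an interferon-induced membrane protein gene, stood at 1282 and 1190 TPM in BaP, at 2079 and 1424 in MAR1HI, and at 5694 and 6254 in MAR1INT. It rose from MAR1HI to MAR1INT by 1.79 (adjusted p = 0.000725, limma). Gata2, which encodes a transcription factor of stem cells that basophils also use, rose from 269 and 348 TPM in BaP to 675 and 602 in MAR1INT (1.05, adjusted p = 0.00399). Its call was lost without BaP replicate 1 (0.0514) and kept in the other 12 alternatives. Igf1r, the receptor of insulin-like growth factor, rose by 0.84 between the same groups.

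**Figure D3:**
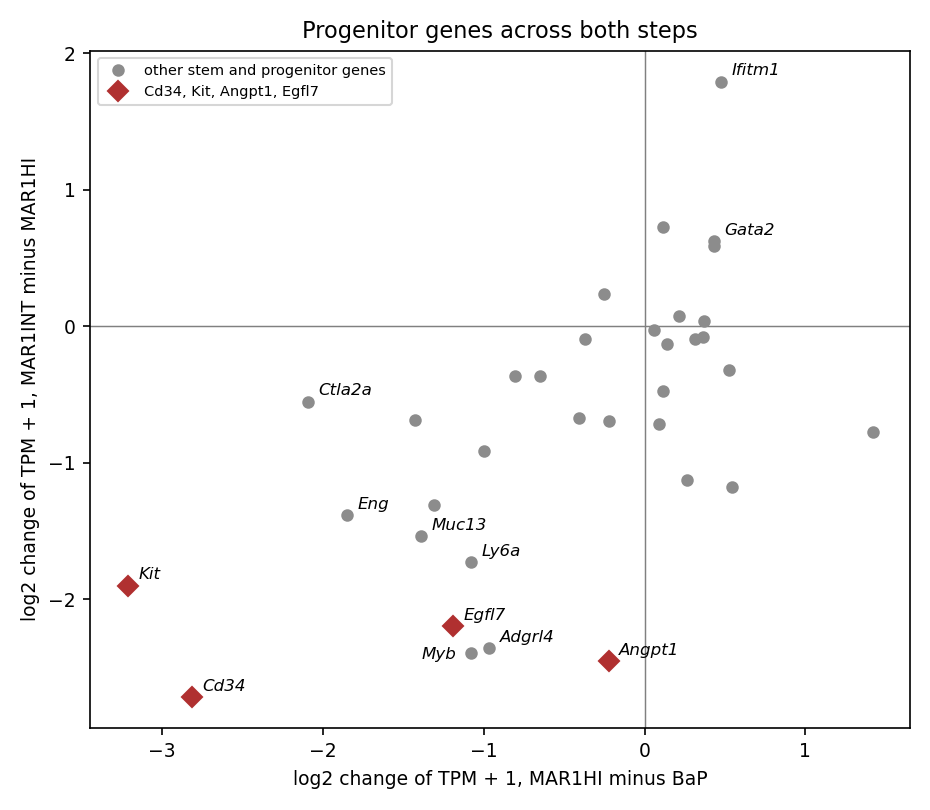
Log2 change of TPM + 1 from BaP to MAR1HI (horizontal axis) and from MAR1HI to MAR1INT (vertical axis), for the 4 tested progenitor genes (diamonds) and 31 other stem and progenitor genes (circles). Both axes use the MAR1HI libraries, so the steps share samples. Kit and Cd34 lie to the lower left and Angpt1 almost straight below 0.

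Class III receptor tyrosine kinases were compared because Kit and Flt3 belong to them. Of 5 genes, Kit, Csf1r and Pdgfrb were tested, and all 3 were lower in MAR1HI than in BaP and in MAR1INT than in BaP, against 0.662% and 20.4% of all genes tested. Pdgfrb passed the filter only through the BaP libraries, so it could hardly be called higher elsewhere. Kit is itself one of the progenitor genes followed here. The count therefore adds little beyond Csf1r. Csf1r, the receptor of macrophage colony-stimulating factor, stood at 39.4 and 29.6 TPM in BaP, at 3.70 and 4.20 in MAR1HI, and at 1.89 and 6.17 in MAR1INT. Its change was -2.83 in MAR1HI minus BaP (adjusted p = 0.023) and -0.12 in MAR1INT minus MAR1HI (adjusted p = 0.902), where Kit fell. Pdgfrb had 4.42 and 4.97 TPM in BaP, 0.243 and 0.107 in MAR1HI, and only values of 0 for MAR1INT (-2.28 in the first comparison, adjusted p = 0.018). Like Kit, both lost the call between MAR1HI and BaP when any 1 of the BaP or MAR1HI libraries was left out, with pseudocount 0.1 and with no filter, and both kept it between MAR1INT and BaP in all 13 alternatives. Pdgfra stayed at or below 0.00857 TPM.

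No tested ligand or receptor of the progenitor genes was called lower in any of the 3 comparisons. Of all genes tested 0.662% were called lower in MAR1HI minus BaP, 14.5% in MAR1INT minus MAR1HI and 20.4% in MAR1INT minus BaP. With so few genes, the count of 0 does not set the ligands and receptors apart. Of 12 listed, 6 were tested, and from BaP to MAR1INT 5 were higher and 0 lower, against 11.1% of all genes tested called higher. Only 2 were higher without BaP replicate 1, 3 with no filter, and 4 or 5 without any other library. Itgb3, the integrin beta 3 chain to which EGFL7 can bind, stood at 3.55 and 7.69 TPM in BaP, at 25.6 and 33.0 in MAR1HI, and at 66.4 and 83.9 in MAR1INT (3.59 from BaP to MAR1INT, limma adjusted p = 0.000273). Flt3l, the ligand of Flt3, stood at 10.5 and 18.6 TPM in BaP, at 29.0 and 45.1 in MAR1HI, and at 38.7 and 38.8 in MAR1INT. Its rise from BaP to MAR1INT of 1.41 (adjusted p = 0.0179) was lost with no filter (0.068) and without BaP replicate 1 (0.174). Notch1, a receptor whose signalling EGFL7 can modulate, rose by 1.70 from BaP to MAR1INT. Kitl, which encodes stem cell factor, stayed at or below 0.368 TPM, and Tek, the receptor of Angpt1, at or below 0.690 TPM.

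Downstream of Kit and Flt3, transcripts of the signalling chain rose or were not called. Of 40 listed genes 38 were tested, and 11 were higher and 0 lower in MAR1INT than in BaP, against 11.1% and 20.4% of all genes tested (median 0.53, against -0.16). The higher count was 3 without BaP replicate 1, 5 without BaP replicate 2 and 7 without MAR1INT replicate 1 (2 being lower there), and under other settings the higher count lay between 7 and 18. Jak2, a kinase used by many cytokine receptors, stood at 232 and 231 TPM in BaP, at 381 and 485 in MAR1HI, and at 785 and 763 in MAR1INT (1.73 from BaP to MAR1INT, adjusted p = 0.000309). Gab2, an adaptor, stood at 30.5 and 36.1 TPM in BaP and 115 and 127 in MAR1INT (1.83, adjusted p = 0.00143). Both kept their calls in all 13 alternatives. Fyn, a Src family kinase (1.27, adjusted p = 0.00223), and the phosphoinositide kinase subunit Pik3cd (1.27, adjusted p = 0.0121) rose as well, the latter call being lost with no filter and without BaP replicate 1 (highest 0.121). In the comparisons with MAR1HI, 3 (Dok2, Fyn and Jak2, against BaP) and 2 (Plcg1 and Jak2, in MAR1INT) were higher, against 1.83% and 2.29% of all genes tested. The first count was 0 once any single BaP or MAR1HI library was left out. The second was 0 or 1 without any 1 library, 0 with no filter and 8 with median-of-ratios scaling.

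Among 20 regulators of progenitor genes, 19 were tested and 0 were called between MAR1HI and BaP in either direction. Of all genes tested 2.49% were called there, so this count does not set the regulators apart. From BaP to MAR1INT, Myb was lower, and Spi1 (1.12), Gata2 (1.05) and Cebpa (0.95) were higher, so 1 of 19 was lower and 3 higher, against 20.4% and 11.1% of all genes tested. The lower count was 3 without MAR1INT replicate 1. The higher count was 1 without BaP replicate 1, 5 without either MAR1HI library and 7 with median-of-ratios scaling. Spi1, which encodes the myeloid factor PU.1, had 129 and 138 TPM in BaP and 279 and 306 in MAR1INT. The relatives of the secreted factors gave little to compare. Of 8 angiopoietin family genes 3 were tested and only Angpt1 was called, and Angpt2 was listed at 0 in all libraries. Of 6 genes in the Egfl7 group, 4 were tested and only Egfl7 was called. Both calls were lower in MAR1INT than in MAR1HI and than in BaP, where 14.5% and 20.4% of all genes tested were called lower. Such small lists do not differ clearly from those shares. Podxl and Podxl2, the sister genes of Cd34, did not pass the filter.

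Of the genes next to the progenitor genes in the genome, only Notch1, Agpat2, Cd46 and Pan3 were tested. None of them was called lower from BaP to MAR1INT, against 20.4% of all genes tested. With so few genes, that count does not set the neighbours apart from other genes. Agpat2, a lipid enzyme gene, lies 0.375 kb from Egfl7, and Notch1 lies 77.3 kb on the other side. Agpat2 stood at 15.0 and 16.6 TPM in BaP, at 19.0 and 42.0 in MAR1HI, and at 28.7 and 41.6 in MAR1INT. Notch1 stood at 21.7 and 35.3, 52.3 and 85.6, and 99.9 and 85.5 TPM. Both were lowest in BaP, where Egfl7 was highest. From BaP to MAR1INT limma called Notch1 higher (adjusted p = 0.00469, but 0.0603 without BaP replicate 1) and did not call Agpat2 (1.08, adjusted p = 0.0718). The neighbours of Kit, both also receptor kinase genes, were low in all libraries: Pdgfra at or below 0.00857 TPM and Kdr at or below 0.685. Beside Flt3, Urad was listed at 0 throughout and Pan3, a part of an mRNA deadenylase, stood at 84.3 and 101 TPM in BaP and 158 and 153 in MAR1INT. Limma called Pan3 higher from BaP to MAR1INT (0.74, adjusted p = 0.0486). Cd46, next to Cd34, stood at 2.48 and 1.75 TPM in BaP and 5.07 and 7.03 in MAR1INT, and was not called (1.17, limma adjusted p = 0.0811). Plxna2, on the other side of Cd34, stayed at or below 0.04 TPM. Both neighbours of Angpt1, Abra and Rspo2, were listed at 0.

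**Figure D4:**
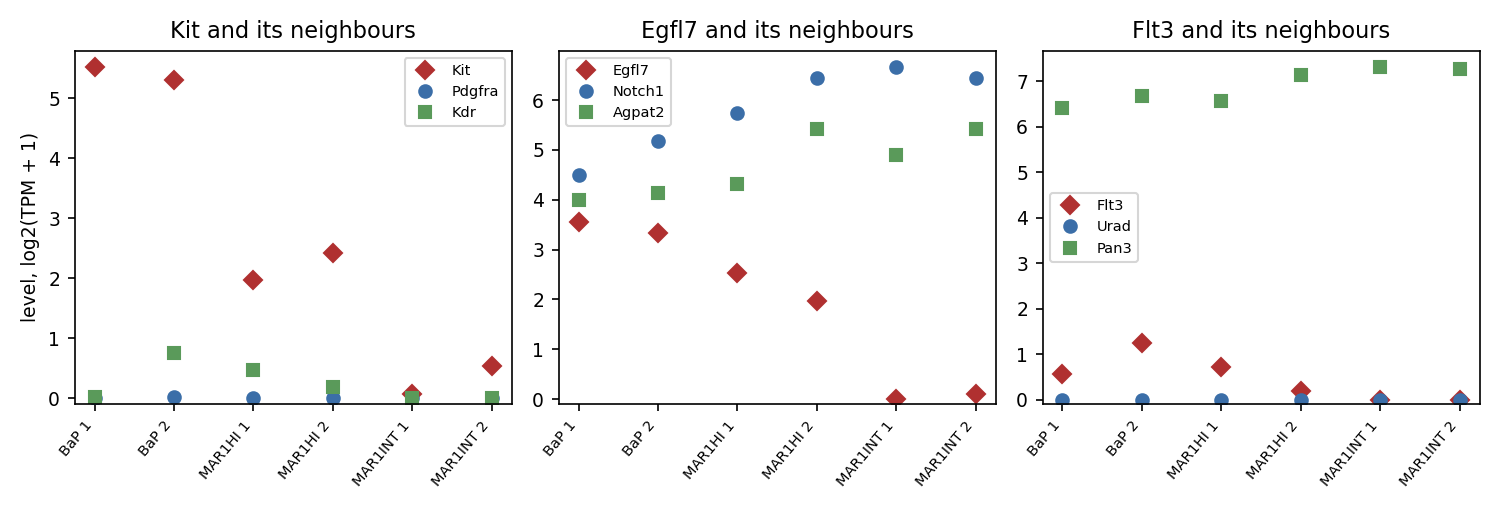
Level, as log2(TPM + 1) (vertical axis), of Kit, Egfl7 and Flt3 (diamonds) and of the nearest protein-coding genes on either side (circles and squares) in each of the 6 libraries. Egfl7 is lowest in the MAR1INT libraries and highest in BaP, and its neighbours Notch1 and Agpat2 are lowest in BaP.

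The genes with the most similar pattern were found by the root mean square distance between centred log2(TPM + 1) values over the 6 libraries, a description without a test. For Cd34 these were Gmpr (distance 0.27), Ly86 (0.32) and Tmem176b (0.34), and Kit came next (0.39). For Kit they were Tmem176b (0.18), Clec4a3 (0.31) and Cd34 (0.39). Tmem176b, a membrane protein gene of myeloid cells, had 33.9 and 32.8 TPM in BaP, 2.87 and 3.13 in MAR1HI, and only values of 0 for MAR1INT. Gmpr, a purine enzyme gene, had 39.1 and 28.6, 5.07 and 7.49, and 0.186 and 0 TPM. Ly86 and Clec4a3, which encode immune surface proteins of myeloid cells, had the same shape. Only 5 genes lay within a distance of 0.5 of Cd34 and 8 of Kit, against 561 of Angpt1 and 161 of Egfl7.

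The genes nearest to Angpt1 were Dpp7 (0.08), Osgepl1 (0.09) and Qrsl1 (0.10). Their levels were another matter: Dpp7, a lysosomal peptidase gene, had 5.99 and 5.39 TPM in BaP and only values of 0 for MAR1INT, whereas Angpt1 kept 14.1% of its BaP mean. With FPKM or with pseudocount 0.1, none of the 3 stayed among the nearest of Angpt1. For Egfl7 the nearest were Rrp1b (0.10), Timeless (0.17) and Fdx2 (0.17). Timeless, a replication fork gene, stood at 28.6 and 23.2 TPM in BaP, at 15.3 and 11.7 in MAR1HI, and at 1.99 and 1.54 in MAR1INT. With pseudocount 0.1, 0 of the 3 stayed for Kit, 2 for Egfl7 and 3 for Cd34.

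Markers of other cell types that express some of these genes were examined in the same libraries. Mast cells, which keep Kit, left almost no signal: the 11 mast cell markers summed to between 0 and 4.06 TPM, and Mcpt1, Tpsab1, Mrgprb1 and Mrgprx1 were listed at 0 in every library. Endothelial markers are relevant to Cd34 and Egfl7, and Esam, Robo4, Tek and Tie1 among them are also on the list of other stem and progenitor genes. The 15 endothelial genes summed to 5.91 and 8.54 TPM in BaP, to 4.89 and 1.90 in MAR1HI, and to 0.340 and 0 in MAR1INT. That sum was below Cd34 and Egfl7 in both BaP libraries, but above Cd34 (4.67 TPM) and Egfl7 (4.76) in MAR1HI replicate 1. Plvap, the only one tested, stood at 2.57 and 2.89 TPM in BaP and 1.69 and 1.52 in MAR1HI, and was listed at 0 in MAR1INT. It was called lower in MAR1INT than in MAR1HI (-1.38, limma adjusted p = 0.0375) and than in BaP (-1.90, adjusted p = 0.00543). Sox17 and Ramp2 were listed at 0 in every library. Megakaryocyte markers summed over 11 genes to 271 and 288 TPM in BaP, to 445 and 578 in MAR1HI, and to 509 and 431 in MAR1INT. That list includes Itgb3, and the other 10 genes summed to 267 and 281, 419 and 545, and 443 and 347 TPM in the same order of libraries. Itga2b alone made up most of these sums, at 238 and 261, 398 and 529, and 436 and 338 TPM. The rest did not share its course. From BaP to MAR1INT, Pf4 went from 13.3 and 4.28 TPM to 0 and 0, and Gp1ba from 10.9 and 13.9 to 0 and 4.12. Ppbp went from 3.30 and 0 to 6.17 and 5.02, and Gp6 and Treml1 were listed at 0 in every library.

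The endothelial sum followed the order of Cd34 and Kit over the 3 groups, and so did the sums for granulocyte-monocyte progenitors and dendritic cells. The 9 markers of granulocyte-monocyte progenitors, cells that themselves carry CD34 and Kit (Csf1r is on this list too), summed to 3905 and 4580 TPM in BaP, to 1925 and 1898 in MAR1HI, and to 361 and 267 in MAR1INT. Of the 9, 3 were called lower between BaP and MAR1HI, 4 between MAR1HI and MAR1INT and 7 between BaP and MAR1INT, against 0.662%, 14.5% and 20.4% of all genes tested. Dendritic cell markers (13 genes) summed to 984 and 362 TPM in BaP, to 62.2 and 46.7 in MAR1HI, and to 23.4 and 26.6 in MAR1INT. Cd74, H2-Ab1, H2-Eb1 and H2-Aa made up most of the BaP sums. They stood there at 353.5 and 116.7, 235.5 and 97.17, 199.1 and 51.95, and 172.1 and 63.98 TPM. Of the same list, Batf3 was listed at 0 in every library, and Xcr1 and Zbtb46 stayed at or below 0.1633 TPM. Eosinophil markers (8 genes) summed to 2160 and 1146 TPM in BaP, to 81.2 and 119 in MAR1HI, and to 81.5 and 228 in MAR1INT. The sums were lower outside BaP, but Siglecf rose, from 21.9 and 20.9 TPM in BaP to 29.5 and 44.5 in MAR1HI and 79.5 and 109.8 in MAR1INT. It made up most of the sum in MAR1INT replicate 1. The MAR1INT duplicates differed in Prg2 (1.95 and 70.05 TPM) and Ear2 (0.0857 and 37.5). The sums therefore do not show whether the other genes fell further. From MAR1HI to MAR1INT 0 of 7 tested genes were called lower and 1, Siglecf, higher, against 14.5% and 2.29% of all genes tested. The dendritic cell and eosinophil sums were higher in BaP replicate 1 than in replicate 2. Not all dendritic cell markers shared that order. Irf8 stood at 6.038 TPM in BaP replicate 1 and 12.84 in replicate 2, and Cd209a at 7.362 and 1.877. Cd34 (52.6 and 44.1 TPM) and Kit (44.9 and 38.6) were also higher in replicate 1, by a smaller factor. The granulocyte-monocyte progenitor sum (3905 and 4580 TPM) and the endothelial sum (5.91 and 8.54) were instead higher in BaP replicate 2. Stromal markers, without Pdgfra and Pdgfrb, which are on that list, summed over 8 genes to 8.22 and 3.02 TPM in BaP, to 9.75 and 3.59 in MAR1HI, and to 0.863 and 0.918 in MAR1INT. The part of these cell types in the values of the progenitor genes was not tested.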

How the data were processed

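Per the submitters' processing notes, reads were handled with Trimmomatic, HISAT2 and StringTie on the mouse build mm10. Versions, options and the annotation release are not given in the sources used here. Per the labels' protocols, RNA was isolated with TRIzol LS and libraries were enriched by capture, so levels also depend on the capture probes. The authors deposited 1 table per library, with TPM, FPKM and coverage (a signal, reads over each base on average) for each gene. No read counts were used, so the precision rests on the spread between duplicates. Nothing states how the duplicates were taken beyond the word biological, and p-values measure only the spread between these libraries.

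Gene IDs were matched to symbols through RefSeq GRCm38.p6 (24462 of 24532), and values of IDs listed in several rows were summed. Of the matched IDs, 24324 overlapped their reference interval. Genes at 1 TPM or more in at least 2 of 6 libraries were tested on the log2(TPM + 1) scale, two-sided, in R 4.3.3 by limma 3.58.1 (functions lmFit, contrasts.fit and, with a trend, eBayes). The model had 1 term per group, 3 residual degrees of freedom and 6.39 prior ones (median), and the adjusted p had a threshold of 0.05. The script was tested on simulated data. Tables and figures were made with matplotlib 3.10.9, numpy 2.4.6 and pandas 2.3.3 under Python 3.11.15. Promoter windows were matched for 4 of the 5 genes.

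The 5 genes and all gene lists were chosen with earlier results of these data known. All 5 were named, as were up to 4 called genes per list and comparison with the largest changes, the 3 genes nearest in pattern to each, and defining or highest markers. A called gene of the list of ligands and receptors is not reported here by name. The signalling genes called against MAR1HI, and the genomic neighbours, are named as complete sets. The alternatives were FPKM, pseudocount 0.1, no filter, quantile normalization, median-of-ratios scaling, only the compared groups, a replicate block and leaving out each library. The repeats of the pattern search were added after seeing the data.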

Additional observations from a re-analysis of the deposited data

How the results depend on the processing

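From BaP to MAR1INT, 4 of the 5 genes were called lower under every alternative run, and 4 passed the F test in each. Of 156 alternative values for single progenitor genes, 134 kept their direction and call, 21 lost the call and 1 turned: Angpt1 in MAR1HI minus BaP was 0.12 (adjusted p = 0.829, range over the alternatives 0.16 to 0.952) without MAR1HI replicate 1, and its values without 1 library lay between -0.56 and 0.12. The cause was not tested. Between MAR1HI and BaP, the 2 genes called lower became 0 with pseudocount 0.1 and 0 with no filter on low values, and 0 to 2 when 1 library was left out. All genes called there numbered 282, and 89 with pseudocount 0.1, 4 with no filter (which tests 18601 genes), 1062 with only the 2 groups compared, and 3 to 1092 without 1 library. Between MAR1INT and MAR1HI, the 4 genes called lower became 2 with no filter, 2 after quantile normalization, and 1 to 4 without 1 library. All genes called there numbered 1900, and 562 with no filter and 239 to 2611 without 1 library. Between MAR1INT and BaP all genes called numbered 3574, and 2358 with no filter and 1581 to 4024 without 1 library. The share of called genes that were higher was 73.4%, 13.7% and 35.3% in these 3 comparisons, whereas quantile normalization gave 56.9%, 45.3% and 55.1%, median-of-ratios scaling 60%, 39.7% and 41.4%, and FPKM 59.0%, 17.0% and 28.7%. When a library is left out, its group has 1 library, which is assumed to vary like the others.

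Whether libraries of the same replicate number were paired is not given in the sources used here. Their deviations correlated only weakly across genes, at 0.154, -0.0922 and -0.0593 for BaP with MAR1HI, BaP with MAR1INT and MAR1HI with MAR1INT. With 2 libraries a group, such values cannot settle whether mice or sorts were shared. With the replicate block 211, 1760 and 3394 genes were called in the 3 comparisons, and the block changed no call of Cd34, Kit, Angpt1 or Egfl7. Among the other stem and progenitor genes, the block left 0 lower and 1 higher in MAR1HI minus BaP (Ctla2a, Eng and Muc13 losing the call) and 4 lower and 1 higher in MAR1INT minus MAR1HI. Of the signalling genes it left 0 and 1 higher in these comparisons, and of the regulators 0 higher in the second (Spi1 losing the call). Coverage limits what can be said of Flt3 in every group and of Cd34, Kit and Egfl7 in MAR1INT.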
